A study of Mus musculus with 12 samples.

Results

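Wnt signalling acts in the nucleus through DNA-binding factors of the Tcf/Lef family, and 8 genes close to that step were described here in cultured fetal mouse kidneys: the factors Lef1 and Tcf7l2, the target transcription factors Sp5 and Myc, the surface proteins Lgr5, Cd44 and Tnfrsf19, and the cyclin Ccnd1. They were taken by gene symbol, as every probe set whose only annotated symbol is one of these names. They account for 16 of the 22690 probe sets on the array and for 8 of the 12393 genes with a symbol of their own. The study set 6 kidneys with activated beta-catenin, which the labels describe as bearing tumors, against 6 wildtype kidneys described as normal. All 12 samples were of the C57BL/6 strain and came from pregnant mice given tamoxifen (2 mg for each 40 g of the mother) on day 10.5 of gestation, so the wildtype kidneys were exposed to the drug too. Dissection was on the same day of gestation, and the kidneys were cultured for 3 to 4 days before their RNA was hybridised to Affymetrix arrays. The allele, and the promoter and cell type of any Cre recombinase, are not given in the sources used here, nor do the labels say which samples came from separate animals or litters. The p-values therefore measure the spread between these samples, which may be technical in part.

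In the canonical pathway, beta-catenin that escapes degradation enters the nucleus and binds Tcf/Lef proteins, which otherwise hold their target genes down together with corepressors. Lef1, Sp5, Lgr5, Ccnd1, Myc, Cd44 and Tnfrsf19 have each been described as targets of this step in one tissue or another, and their response is known to depend on the tissue. In the developing kidney, Wnt signals from the ureteric bud act on the surrounding nephron progenitors through beta-catenin.

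Tcf/Lef proteins recognise a short DNA core, and the promoter windows of the genes that hold this core are printed because the genes were grouped by their tie to these factors. The RefSeq windows of 300 bases around each annotated start of assembly GRCm38.p6 were searched on both strands for CTTTGAA (held by 5.14% of all windows), CTTTGAT (3.73%), CTTTGTA (3.63%) and CTTTGTT (5.85%). Of the 8 genes, 5 had windows in the RefSeq table, 10 windows in all, and 4 of these windows in 4 genes held a core. Over all 32851 windows of that length, 16.9% held at least 1 of the 4 cores. Capitals mark each core, or its reverse complement where it lies on the strand opposite to the gene, and all windows run 5′ to 3′ along the gene's own strand. The Sp5 window lies at chr2:70474673-70474972 on the plus strand, the Tnfrsf19 window at chr14:61037938-61038237 on the minus strand, the Lef1 window at chr3:131156044-131156343 on the plus strand and the Tcf7l2 window at chr19:55895071-55895370 on the plus strand.
Sp5: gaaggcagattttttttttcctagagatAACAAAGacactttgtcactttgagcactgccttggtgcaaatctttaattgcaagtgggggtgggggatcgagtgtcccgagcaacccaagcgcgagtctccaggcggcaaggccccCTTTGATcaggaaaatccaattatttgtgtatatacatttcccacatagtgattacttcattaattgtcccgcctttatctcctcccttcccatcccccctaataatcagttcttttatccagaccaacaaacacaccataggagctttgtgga
Tnfrsf19: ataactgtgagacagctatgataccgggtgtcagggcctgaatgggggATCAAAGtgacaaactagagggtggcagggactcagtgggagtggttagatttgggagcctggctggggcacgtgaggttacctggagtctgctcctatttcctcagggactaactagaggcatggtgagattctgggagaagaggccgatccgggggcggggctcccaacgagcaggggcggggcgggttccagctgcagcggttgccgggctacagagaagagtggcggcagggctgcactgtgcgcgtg
Lef1: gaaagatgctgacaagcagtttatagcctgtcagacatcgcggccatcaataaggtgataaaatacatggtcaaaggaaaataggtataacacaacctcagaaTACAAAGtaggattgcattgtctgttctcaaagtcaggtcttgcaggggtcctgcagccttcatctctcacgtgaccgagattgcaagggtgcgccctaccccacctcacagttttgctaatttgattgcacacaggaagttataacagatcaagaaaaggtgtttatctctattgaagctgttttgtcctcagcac
Tcf7l2: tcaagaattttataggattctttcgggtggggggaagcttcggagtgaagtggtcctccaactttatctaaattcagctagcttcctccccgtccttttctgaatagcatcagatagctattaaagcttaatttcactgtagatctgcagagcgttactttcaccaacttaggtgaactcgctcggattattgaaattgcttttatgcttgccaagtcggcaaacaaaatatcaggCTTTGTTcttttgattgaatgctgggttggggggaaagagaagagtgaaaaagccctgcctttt
The Sp5 window was the one with 2 cores, CTTTGTT on the opposite strand 222 bases before the start and CTTTGAT on the gene's strand 104 bases before it. In Tnfrsf19 the core was CTTTGAT on the opposite strand, 202 bases before a start that lies inside the gene. Lef1 had CTTTGTA on the opposite strand, 147 bases before an internal start, and Tcf7l2 had CTTTGTT on its own strand, 14 bases before an internal start. Such matches are a description of the letters and do not show that a factor binds there.

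Values are given on the log2 scale, as log2(intensity + 16) after quantile normalisation, and levels of different probe sets are not set against each other. By the number in its title each array belongs to 1 of 2 consecutive series, and both series hold 3 activated and 3 wildtype arrays. They are called the lower run (activated and wildtype replicates 1 to 3) and the higher run (replicates 4 to 6), and what separates them is not in the labels. On the leading principal component (24.7% of variance) the 6 arrays of the higher run lay between 17.0 and 22.9 and those of the lower run between -27.1 and -15.0. Each effect is therefore given over all 12 arrays and within each run. A gene was called at an adjusted p under 0.05 in limma, with Benjamini-Hochberg adjustment over all 12393 genes. Bacterial control probe sets, which should carry no signal here, reached at most 5.45, and a level below this is not distinguishable from background. Activated replicate 2 stood apart in the signal of the 5′ against the 3′ probe sets of control genes (log2 ratio -0.26, against -2.43 to -1.06 on the other 11 arrays). Next were activated replicate 6 (-1.06) and wildtype replicate 2 (-1.43), with the rest at -1.87 or below. Of the 8 kidney markers measured, 7 had a mean above the bacterial controls and Ret did not. Their summed intensity was 4383 to 4875 on activated and 5724 to 5994 on wildtype arrays of the higher run, and 3142 to 3582 on activated and 6315 to 7130 on wildtype arrays of the lower run, and their part in the results was not tested. Among them, Calb1, a marker of the ureteric bud, fell over all 12 arrays (difference -0.75, SE 0.12, adjusted p = 0.0416), and Six2 (-2.01), Calb1 (-1.02) and Foxd1 (-0.93), which mark nephron progenitors, ureteric bud and stroma, fell in the lower run. Leaving out 1 array ended the call of Calb1 over all 12 arrays in 9 of 12 fits and that of Foxd1 in 3 of 6. Without the variance trend the calls of Calb1 (adjusted p = 0.171 over all 12 arrays and 0.104 in the lower run) and Foxd1 (adjusted p = 0.0926) ended, and the call of Calb1 over all 12 arrays also ended with the values as deposited (adjusted p = 0.0694), among other settings. In whole kidneys, fewer cells of a type and less RNA per cell cannot be told apart.

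None of the 8 genes passed the test over all 12 arrays, where 0.0242% of all genes did, in the higher run (0.00807% of all genes), in the lower run (0.597%), or when the effects of the runs were compared (0.331%). At an unadjusted p under 0.05, 2 of the 8 were found over all 12 arrays, 0 in the higher run, 3 in the lower run and 2 for the difference, against 6.15%, 6.36%, 7.07% and 6.11% of all genes. The 8 genes were chosen with earlier results of these data known. Their counts and medians beside those of all genes are therefore a description only. Sp5 and Tnfrsf19 had the largest differences of the 8 genes, both in the lower run, where activated kidneys were at least 3.31 and about 3.18 times the wildtype level on the log2(intensity + 16) scale. The Sp5 fold is a lower bound, because 2 of its 3 wildtype arrays lay below the bacterial controls and were set to their level, 5.45, for it. Activated arrays lay above all wildtype arrays for 2 of the 8 genes in the higher run, Tcf7l2 and Tnfrsf19 (5.6% of all genes), and for 3 in the lower run, Sp5, Lgr5 and Tnfrsf19 (5.41%). They lay below all wildtype arrays for Myc in the lower run (7.09%). The closest activated and wildtype arrays were at 6.68 and 6.67 for Tcf7l2, and at 7.04 and 7.02 for Lgr5. The median log2 difference of the 8 genes was 0.36 over all 12 arrays, 0.22 in the higher run and 0.51 in the lower run, beside -0.01, -0.00 and -0.03 for all genes. Each of these medians lies between the values of Cd44 and Lef1, and Lef1 was above the bacterial controls on only 2 of 12 arrays. A positive difference was found for 6 of the 8 over all 12 arrays (46.6% of all genes), 6 in the higher run (49.7%) and 6 in the lower run (45.6%). These include Tcf7l2 at 0.0015 over all 12 arrays. They also include Lef1 in the higher run, where none of its arrays was above the bacterial controls.

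**Figure D1:**
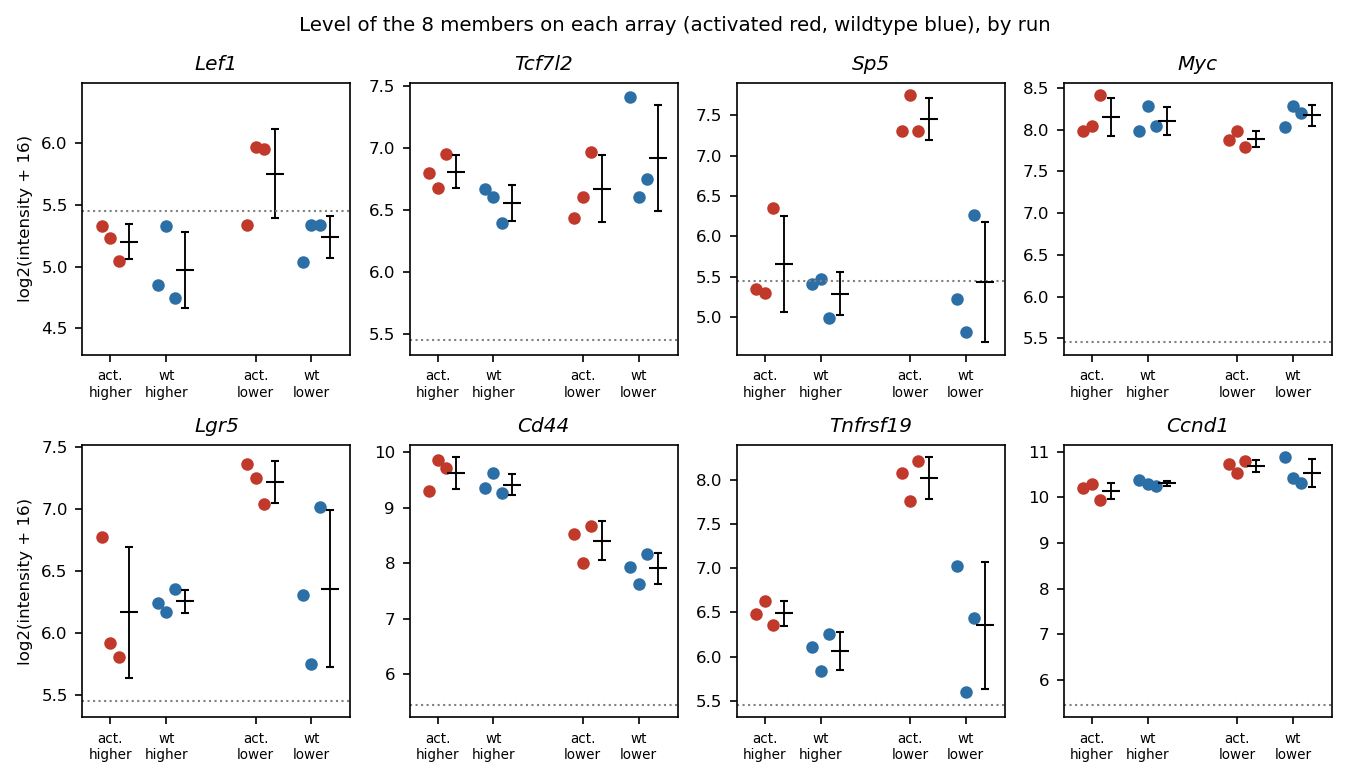
Level of each of the 8 genes on every array, as log2(intensity + 16), with activated arrays in red to the left of wildtype arrays in blue, the higher run on the left and the lower run on the right of each panel; bars show the mean and SD of 3 arrays and the dotted line the highest bacterial control (5.45). Sp5 and Tnfrsf19 separate the genotypes most clearly in the lower run, Cd44 separates the runs, and most Lef1 points lie below the dotted line.

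Lef1, which binds beta-catenin and activates targets, was dim and did not pass any test. Its levels in the higher run were 5.33, 5.24 and 5.04 on activated arrays, against 4.85, 5.32 and 4.74 on wildtype arrays. Those of the lower run were 5.33, 5.97 and 5.95 on activated arrays, against 5.04, 5.34 and 5.33 on wildtype arrays. Only 2 of the 12 arrays lay above the bacterial controls, both of them activated arrays of the lower run, and the genotypes overlapped over the 12 arrays. The log2 difference was 0.37 (SE 0.20, adjusted p = 0.869) over all 12 arrays and 0.51 (SE 0.29, adjusted p = 0.822) in the lower run, where no wildtype array was above the bacterial controls. With dimmer arrays set to the level of those controls, the lower run difference was 0.34. In the higher run no array of either genotype was above the controls, so no difference is given (adjusted p = 0.914). The value over all 12 arrays includes these arrays. Its T cell expression is well known, and of the 5 T cell markers measured 0 had a mean above the bacterial controls. Their summed intensity was 20.8 to 50.1 on activated arrays and 28.1 to 73.4 on wildtype arrays.

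Tcf7l2, the factor also known as Tcf4 and required for intestinal stem cells, gave no call and a mean difference close to 0. The probe set with the highest signal gave 6.80, 6.68 and 6.95 on activated arrays of the higher run, against 6.67, 6.60 and 6.39 on wildtype arrays. It gave in the lower run 6.44, 6.61 and 6.97 on activated arrays, against 7.41, 6.61 and 6.75 on wildtype arrays. Activated arrays lay above all wildtype arrays in the higher run, with the closest at 6.68 and 6.67, and overlapped them in the lower run. Over all 12 arrays the log2 difference was 0.00 (95% interval -0.38 to 0.38, limma adjusted p = 0.999), an interval of 0.768 to 1.30 in fold. It was 0.26 (SE 0.18, adjusted p = 0.885) in the higher run and -0.25 (SE 0.29, adjusted p = 0.955) in the lower run, and the effect in the higher run minus that in the lower was 0.51 (SE 0.34, adjusted p = 0.978). The other 3 probe sets differed by -0.03, -0.33 and -0.03 over all 12 arrays, and on each of them the genotypes overlapped in the higher run. The probe set with -0.33 also gave the most negative value of the lower run (-0.71, unadjusted p = 0.0449, adjusted p = 0.775), with 1 of 3 activated arrays above the bacterial controls, and the 4 probe sets did not share a sign there.

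The factors and cofactors around these 2 genes gave no call in the 4 comparisons. Of 18 listed Tcf/Lef factors and beta-catenin cofactors, 16 were measured, and none passed the test in any of the 4 comparisons. Over all 12 arrays 1 had a positive difference, and the median was -0.12, beside -0.01 for all genes. Tcf7l1, a family member that mainly represses, was at 10.46, 10.54 and 10.53 on activated arrays of the higher run, against 10.54, 10.59 and 10.64 on wildtype arrays. In the lower run Tcf7l1 was at 10.14, 9.77 and 10.08 on activated arrays, against 10.84, 10.65 and 10.66 on wildtype arrays. Every activated array was below every wildtype array, as for 0.21% of all genes, though the closest were nearly equal (10.539 and 10.545). The log2 difference was -0.40 (SE 0.12, adjusted p = 0.508) over all 12 arrays, -0.08 (SE 0.08, adjusted p = 0.910) in the higher run and -0.72 (SE 0.13, adjusted p = 0.0537) in the lower run. It was called (adjusted p = 0.0206) when the effect was averaged over the runs, as described for Tnfrsf19, in a model that called 0.839% of all genes. Ctnnbip1, an inhibitor that binds beta-catenin, had a difference of -0.37 (adjusted p = 0.873). The 12 measured of 13 listed genes of the destruction complex and its regulators, which control beta-catenin breakdown, also gave no call, with Csnk1d at -0.14 and Dvl1 at -0.15 over all 12 arrays.

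Sp5, a zinc finger factor of the Sp family and a widely reported direct target of beta-catenin, had the largest difference of the 8 genes. In the higher run its levels were 5.34, 5.29 and 6.35 on activated arrays, against 5.41, 5.48 and 4.99 on wildtype arrays. In the lower run they were 7.30, 7.75 and 7.30 on activated arrays, against 5.22, 4.82 and 6.27 on wildtype arrays. The 3 activated arrays of the lower run stood above every other array of the study, while in the higher run activated replicate 6 alone exceeded its wildtype range. That replicate also had the highest 5′ to 3′ ratio of the higher run (-1.06). Its Y-linked level was low (4.24), as was that of wildtype replicate 5 (4.48). The part of the ratio and of the Y-linked level was not tested. Counting both genotypes, 6 of 12 arrays lay above the bacterial controls, so several of the lower values are not distinguishable from background. In the lower run this held for 2 of 3 wildtype arrays.
The lower run means were 7.45 ± 0.26 on activated and 5.43 ± 0.75 on wildtype arrays (SD, n = 3 each), a log2 difference of 2.02 (SE 0.38, 95% interval 1.17 to 2.86) with a limma adjusted p of 0.0542, just above the threshold. Over all 12 arrays the difference was 1.19 (SE 0.41, adjusted p = 0.606) and in the higher run 0.37 (SE 0.32, adjusted p = 0.898). The effect in the higher run minus that in the lower run was -1.65 (SE 0.52, unadjusted p = 0.00707, adjusted p = 0.390). Without wildtype replicate 3 the lower run difference of Sp5 was called (2.43, adjusted p = 0.0261), and it was called under 5 other settings (array weights, median centring, robust variances, spread pooled over the runs, and a threshold of 0.10). In 11 of 17 alternatives it stayed uncalled (adjusted p up to 0.246). Of 7 listed Sp family genes 5 were measured, and none was called, with Sp4 at -0.17 and Sp7 at 0.29 over all 12 arrays.

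Myc, the growth-promoting factor that is a target in colon tumours, gave no call in either run. Activated arrays of the higher run had 7.99, 8.05 and 8.42, against 7.98, 8.29 and 8.04 on wildtype arrays. Activated arrays of the lower run had 7.88, 7.99 and 7.79, against 8.04, 8.28 and 8.20 on wildtype arrays, and there every activated value lay below every wildtype value. The log2 difference was -0.12 (95% interval -0.38 to 0.14, adjusted p = 0.949) over all 12 arrays, 0.05 in the higher run and -0.29 (SE 0.18, adjusted p = 0.851) in the lower run. Neither of its gene lists gave a call: 9 of 9 Myc network genes were measured, with the paralogue Mycn at -0.36 and the antagonist Mnt at -0.44 over all 12 arrays, and 16 of 16 Myc-induced growth genes, with the nucleolar protein Nop58 at 0.27 and spermidine synthase, Srm, at -0.34.

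The surface proteins differed in how they followed the genotype and the run. Lgr5, the R-spondin receptor that marks intestinal stem cells, had levels of 6.78, 5.92 and 5.81 on activated arrays of the higher run, against 6.24, 6.17 and 6.35 on wildtype arrays. Lgr5 levels in the lower run were 7.37, 7.25 and 7.04 on activated arrays, against 6.31, 5.75 and 7.02 on wildtype arrays. The activated arrays of the lower run were all above wildtype, by 0.02 between the closest arrays, and the genotypes overlapped in the higher run. Its difference was 0.39 (SE 0.29, adjusted p = 0.911) over all 12 arrays, -0.09 (SE 0.28, adjusted p = 0.979) in the higher run and 0.86 (SE 0.33, unadjusted p = 0.0265, adjusted p = 0.555) in the lower run. Of 2 intestinal markers measured, 0 had a mean over the 12 arrays above the bacterial controls, which Vil1 exceeded on 5 arrays and Cdx2 on 1. Of 8 listed genes of the Lgr and R-spondin module 4 were measured, and Rspo1, which encodes a ligand of Lgr receptors, fell in the lower run (-1.33, SE 0.22, adjusted p = 0.0283), with -0.30 in the higher run. That call was lost in 5 of 6 fits without 1 array and without the variance trend (adjusted p = 0.0511).

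Tnfrsf19, a TNF receptor family member also called Troy that marks some epithelial stem cells, had the second largest difference. In the higher run its probe set with the highest signal gave 6.49, 6.63 and 6.35 on activated arrays, against 6.11, 5.83 and 6.25 on wildtype arrays. In the lower run the values were 8.09, 7.76 and 8.22 on activated arrays, against 7.03, 5.60 and 6.43 on wildtype arrays. Activated arrays lay above wildtype arrays in each run, a pattern shared with 84 of 12393 genes (0.678%), though over the 12 arrays the genotypes overlapped since wildtype replicate 1 exceeded the activated arrays of the higher run.
The lower run means of Tnfrsf19 were 8.02 ± 0.24 on activated and 6.35 ± 0.72 on wildtype arrays (SD, n = 3 each), a log2 difference of 1.67 (SE 0.35, adjusted p = 0.0883), which passed under the same 5 settings as Sp5, with the dimmest genes left out and with its probe sets averaged. The difference stayed uncalled in 11 of 18 alternatives (adjusted p up to 0.355). It was 0.43 (SE 0.21, adjusted p = 0.802) in the higher run and 1.05 (SE 0.35, adjusted p = 0.592) over all 12 arrays, and the effect in the higher run minus that in the lower was -1.24 (SE 0.43, adjusted p = 0.462). Of its other 2 probe sets, 1 gave 0.96 in the lower run and the second at least 0.56, with all 3 wildtype arrays below the bacterial controls. In the higher run 1 of the 12 values of these probe sets lay above those controls, so no difference is given there.
In an alternative model that held run, genotype and their interaction, with the effect averaged over the runs, 104 genes were called (0.839%) and Tnfrsf19 was the only one of the 8 among them (1.05, SE 0.21, adjusted p = 0.0324). That call was lost in 9 of the 12 fits that left out 1 array (adjusted p = 0.00796 to 0.108). Sp5 was just above the threshold in the same model (1.19, SE 0.26, adjusted p = 0.0516). It was called in 1 of the 12 fits, that without wildtype replicate 3 (adjusted p = 0.0119). Of 19 TNF receptor relatives 16 were measured, and Traf1, an adaptor of these receptors, fell in the lower run (adjusted p = 0.0390) by at least 0.70 on the log2 scale, since its 3 activated arrays lay below the bacterial controls. That call ended with a pseudocount of 1 (-3.35, adjusted p = 0.0955), with every probe set tested alone (adjusted p = 0.0689), without the variance trend (adjusted p = 0.0562) and in 5 of 6 fits without 1 array.

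**Figure D2:**
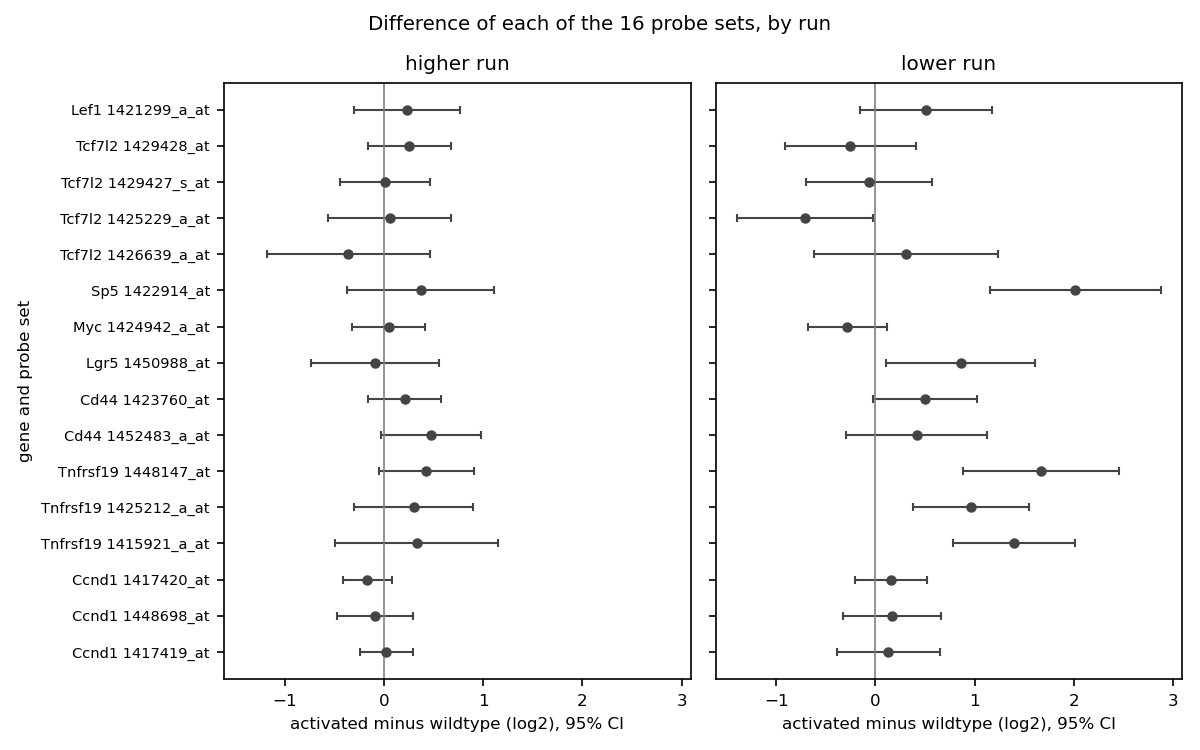
Difference between activated and wildtype for each of the 16 probe sets, in log2 units with 95% intervals from limma fits over all probe sets, in the higher run (left) and the lower run (right), with 3 arrays of each genotype. In the lower run the intervals of Sp5, Lgr5 and all 3 Tnfrsf19 probe sets lie above 0, and that of 1 Tcf7l2 probe set lies below it; in the higher run all intervals include 0.

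Cd44, the hyaluronan receptor that binds the extracellular matrix, differed between the runs, and its genotype difference did not pass the test. It had 9.31, 9.86 and 9.71 on activated arrays of the higher run, against 9.35, 9.63 and 9.27 on wildtype arrays. Cd44 levels in the lower run were 8.53, 8.01 and 8.68 on activated arrays, against 7.93, 7.62 and 8.18 on wildtype arrays. All 6 arrays of the higher run lay above all 6 of the lower run, as for 4.24% of all genes. The genotype difference was 0.35 (SE 0.38, adjusted p = 0.950) over all 12 arrays, 0.21 in the higher run and 0.50 (SE 0.23, adjusted p = 0.721) in the lower run. The dimmer probe set lay above the bacterial controls on 4 of 12 arrays and on 0 of 6 in the lower run, so no lower run difference is given for it. In the higher run 3 of 3 activated and 1 of 3 wildtype arrays were above them, and activated arrays lay above all wildtype arrays. Its difference there was at least 0.33 (limma fit 0.48, unadjusted p = 0.0611, adjusted p = 0.875). With genotype as a term, the higher run exceeded the lower by 1.36 (SE 0.14, limma adjusted p = 1.75e-05), about 2.57-fold, in a comparison that called 11.1% of all genes. This comparison was added after the data had been seen. Leukocyte markers, 7 of 8 of them above the bacterial controls, were likewise higher in sum in the higher run. Their summed intensity was 1798 to 2146 on activated and 1429 to 1864 on wildtype arrays of the higher run, and 597 to 1160 on activated and 746 to 1211 on wildtype arrays of the lower run. Their part in the Cd44 result was not tested. Of 14 listed Cd44 ligands and partners 13 were measured with 0 calls, among them the hyaluronan synthase Has2 (-0.59, adjusted p = 0.345) and the splicing factor Esrp1 (-0.46, adjusted p = 0.619) over all 12 arrays.

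Ccnd1, which encodes cyclin D1 and drives entry into the cell cycle, was well above the bacterial controls on all 12 arrays and gave no call between the genotypes. Its levels were 10.20, 10.29 and 9.94 on activated arrays of the higher run, against 10.37, 10.30 and 10.25 on wildtype arrays. Activated arrays of the lower run had 10.74, 10.54 and 10.80, against 10.88, 10.42 and 10.31 on wildtype arrays. The genotypes overlapped in each run. The difference was -0.00 over all 12 arrays (95% interval -0.32 to 0.31, limma adjusted p = 0.999), -0.17 in the higher run and 0.16 in the lower run, and the other 2 probe sets gave 0.04 and 0.08 over all 12 arrays. Between the runs, with genotype as a term, Ccnd1 was lower in the higher run (-0.39, SE 0.11, adjusted p = 0.0273), as was Tnfrsf19 (-0.91, SE 0.26, adjusted p = 0.0352). With Cd44, 3 of the 8 genes were called between runs, where 11.1% of all genes were called. The Ccnd1 call ended with values as deposited (-0.38, adjusted p = 0.0508) or with arrays centred on their medians (-0.36, adjusted p = 0.174), and without the variance trend the calls of Ccnd1 (adjusted p = 0.0758) and Tnfrsf19 (adjusted p = 0.0522) both ended. Leaving out 1 array ended it in 5 of 12 fits and that of Tnfrsf19 in 8 of 12, and that of Cd44 in 0. Of 18 genes of the D-type cyclin module 17 were measured with 0 calls, including the inhibitor Cdkn1c (-0.64, adjusted p = 0.844) and cyclin E1, Ccne1 (-0.33, adjusted p = 0.869), over all 12 arrays.

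Among other canonical Wnt targets, several inhibitors of the pathway rose in the lower run. Of 34 listed further targets 29 were measured, a list chosen with earlier results of these data known. In the higher run 1 of them rose and 0 fell (0.00807% of all genes were called in either direction), and 17 of 29 had a positive difference (49.7% of all genes). In the lower run 6 rose and 0 fell (0.597% of all genes), and 21 of 29 had a positive difference (45.6% of all genes). Those that rose in the lower run were Wif1 (at least 3.43), Nkd2 (at least 3.12), Apcdd1 (2.90), Notum (2.89), Dkk1 (2.80) and Axin2 (1.78), all of which encode secreted, membrane or intracellular inhibitors. The bounds apply because 0 of 3 wildtype arrays of that run for Wif1, and 1 of 3 for Nkd2, lay above the bacterial controls. Apcdd1 also rose in the higher run (1.08, SE 0.09, adjusted p = 0.00689) and over all 12 arrays (1.99, SE 0.27, adjusted p = 0.0143), calls that 3 of 6 and 5 of 12 fits without 1 array lost. Both also ended with its probe sets averaged (adjusted p = 0.210 and 0.102) and without the variance trend (adjusted p = 0.205 and 0.0613), and the second with robust variances (adjusted p = 0.141). Averaging its probe sets ended the call of Axin2 (1.23, adjusted p = 0.229). The effect differed between the runs, higher minus lower, for 5 of them, Wif1 (-2.79), Notum (-2.75), Nkd2 (-2.42), Dkk1 (-2.38) and Apcdd1 (-1.82), where 0.331% of all genes were called. With a pseudocount of 1 that call ended for Wif1 (-3.85, adjusted p = 0.182) and for Nkd2 (-3.09, adjusted p = 0.150). The Nkd2 call also ended with every probe set tested alone (adjusted p = 0.0523), without the variance trend (adjusted p = 0.0588) and in 10 of 12 fits without 1 array. The lower run values of Sp5 (2.02) and Tnfrsf19 (1.67) are on the scale of Axin2, and those of the other 6 genes are smaller.

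**Figure D3:**
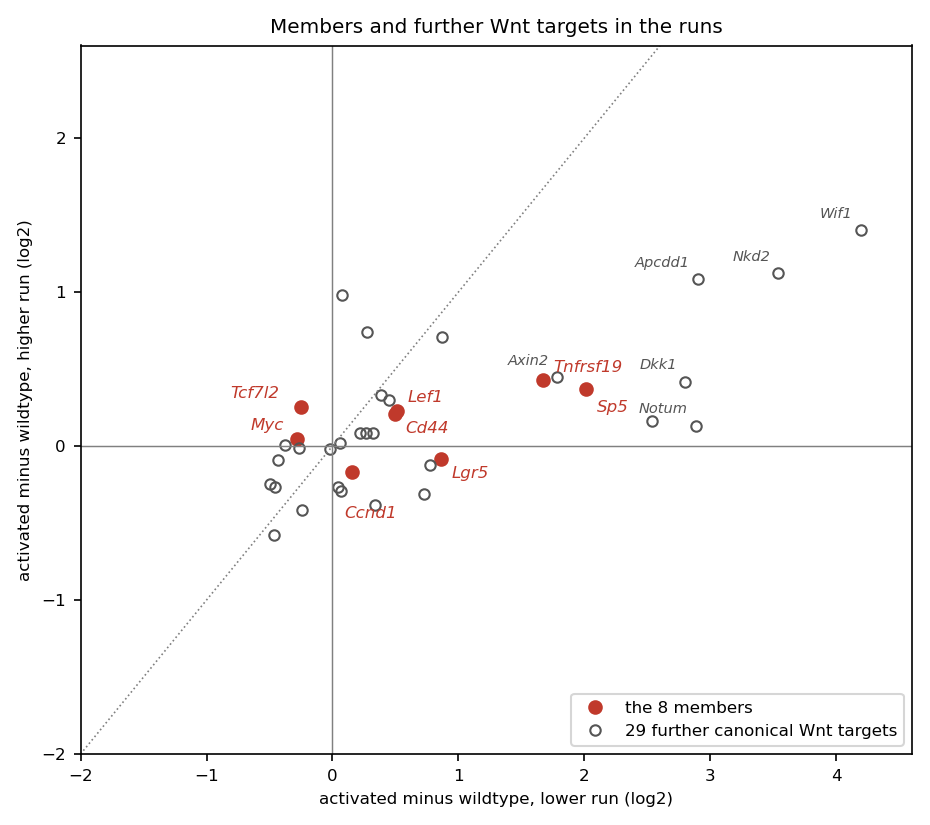
Difference between activated and wildtype in the lower run (horizontal axis) against the higher run (vertical axis), in log2 units, for the 8 genes (red) and 29 further Wnt targets (open circles); the dotted line marks equal differences. The 6 named targets, Sp5 and Tnfrsf19 lie to the right, with fitted lower run values above 1.6 and higher run values below the line. So does the unlabelled circle of Nkd1, which was not called (2.53 in the lower run, limma adjusted p = 0.153, and 0.16 in the higher run).

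Across the 12 arrays, after each run's mean was subtracted, the genes most like each of the 8 were found among 8554 genes above the bacterial controls, as a description with no test. Genotype and RNA quality still varied among the 12 points, so r is not free of either, and Pearson's r is followed by Spearman's rho. For Sp5 these were Irx5 (r = 0.969, rho = 0.944) and Rhob (0.942, 0.867). For Tnfrsf19 they were Robo1 (0.964, 0.937) and Trps1 (0.957, 0.958). Cd44 was nearest to Anxa3 (0.934, 0.881) and Ap1s2 (0.897, 0.909), and Ccnd1 to Acer2 (0.931, 0.881) and Ripk4 (0.915, 0.909). Myc was nearest to Ppcs (0.905, 0.895) and Nufip1 (0.903, 0.902), and Lgr5 to Aopep (0.886, 0.839) and Akr1b10 (0.883, 0.867). The values for Tcf7l2 were Becn1 (0.851, 0.762) and Marcks (0.820, 0.776), and for the dim Lef1 they were Mt2 (0.846, 0.797) and Plod1 (0.817, 0.797). Among the 8 genes themselves, the highest r was that of Sp5 with Tnfrsf19 (0.765) and the lowest that of Myc with Tnfrsf19 (-0.729).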

How the data were processed

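RNA of 12 cultured fetal kidneys, 6 with activated beta-catenin and 6 wildtype, was measured on single-colour Affymetrix arrays. The deposited values are intensities on a linear scale for 22690 probe sets. Each array has the same mean of about 250 after trimming 2% at each end, so the authors had scaled the intensities per array before depositing them, with software not given in the sources used here. Symbols came from the platform annotation supplied with the data, in which 20380 probe sets carry 1 symbol. Intensities were taken as log2(intensity + 16), which understates changes of dim genes, and quantile normalised because array quartiles differed by more than 0.1. The probe set with the highest mean stood for each of 12393 genes. Comparisons used limma 3.58.1 in R 4.3.3, with lmFit, eBayes with a variance trend, and Benjamini-Hochberg adjustment over all genes. The fit was tested on simulated data with known changes. These data held no overall shift between the runs, and the changes were placed in brighter genes only. That test therefore does not show how the fit handles dim genes such as Lef1. Normalisation, pseudocount, filter, choice of probe set, variance model, array weights, covariates, threshold and single arrays were varied. The comparison of the higher with the lower run was added after the data had been seen. The 8 genes and the gene lists were chosen with earlier results of these data known. Named from each list were the members past the threshold in any of the 4 comparisons or, where there were none, the 2 with the smallest p over all 12 arrays. The number of arrays limits the precision.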

Additional observations from a re-analysis of the deposited data

Results flagged for a closer look

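Of 16 groups of 6 arrays tested, 2 held a value far from the rest. Chance flags about 1 in 20 groups whose values come from 1 normal population. Each group here pooled both runs, so that rate need not hold. Both were wildtype replicate 1 of the lower run. Its Tcf7l2 level was 7.41, with the nearest wildtype array at 6.75 and the lowest at 6.39 (gap to range ratio 0.646, critical value 0.625). Its Ccnd1 level was 10.88, with the nearest wildtype array at 10.42 and the lowest at 10.25 (ratio 0.731). Among the genes around the 8, the effect of activation differed between the runs by the interaction test, higher minus lower, for Nkd2 (-2.42, adjusted p = 0.0306), Notum (-2.75, adjusted p = 0.00438), Apcdd1 (-1.82, adjusted p = 0.00194), Dkk1 (-2.38, adjusted p = 0.00214), Wif1 (-2.79, adjusted p = 0.00800) and the nephron progenitor marker Six2 (1.72, adjusted p = 0.0253). With a pseudocount of 1 the call ended for Wif1 (-3.85, adjusted p = 0.182) and Nkd2 (-3.09, adjusted p = 0.150), whose wildtype arrays of the lower run lay above the bacterial controls in 0 and 1 of 3 cases. That of Nkd2 also ended with every probe set tested alone (adjusted p = 0.0523) and without the variance trend (adjusted p = 0.0588). That of Six2 ended with arrays centred on their medians (adjusted p = 0.0593) and without the trend (adjusted p = 0.0977). Leaving out 1 array ended the call of Nkd2 in 10 of 12 fits and that of Six2 in 7 of 12.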

How the results depend on the processing

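Over 32 values of the 8 genes (8 genes in 4 comparisons), 696 alternatives were computed: 657 kept their direction and side of the threshold, 25 reversed and 14 passed the threshold where the reported value had not; as 0 of the 32 values was a call, the loss of one could not be seen. The genes called over all 12 arrays numbered 3, and 1 with probe sets averaged or without the variance trend, 0 at a threshold of 0.01, 13 with run as a term, 52 with the 5′ to 3′ ratio and run, and 104 with the effect averaged over the runs, where 1 of the 8 genes was called. The lower run gave 74 calls, and 39 without the trend, 34 at 0.01, 115 at 0.10, 186 with array weights and 188 with spread pooled over the runs. In that run 2 of the 8 genes, Sp5 and Tnfrsf19, passed at 0.10, with array weights, median centring, robust variances or pooled spread, and 1, Tnfrsf19, with the dimmest 40% of genes left out or probe sets averaged (Sp5 is among the dimmest). The higher run gave 1 call, and 2 with median centring or pooled spread, 3 with robust variances and 0 with probe sets averaged or without the trend. The difference between runs gave 41 calls, and 18 with median centring, 24 without the trend, 88 with array weights, 13 at 0.01, 63 at 0.10 and 89 with the 5′ to 3′ ratio. Between runs 1379 genes were called (11.1% of all genes), and 687 at 0.01, with 3 of the 8 genes called, and 1 without the trend or at 0.01.

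Leaving out 1 array at a time gave 0 to 4 calls over all 12 arrays, 30 to 87 in the lower run (0 to 1 of the 8 genes), 0 to 1 in the higher run, 16 to 47 for the difference and 60 to 136 for the averaged effect (0 to 1 of the 8). Between runs such fits gave 1062 to 1639 calls (1 to 5 of the 8). Signs turned for values near 0. Ccnd1 over all 12 arrays was 0.0062 as deposited, 0.0053 with median centring, 0.037 with probe sets averaged, 0.017 with the 5′ to 3′ ratio, 0.044 with it and run, and -0.081 to 0.092 without 1 array. Tcf7l2 over all 12 arrays was -0.094 with probe sets averaged, -0.0019 with the Y-linked covariate and -0.068 to 0.14 without 1 array, and in the higher run -0.0091 with probe sets averaged. With array weights Myc in the higher run was -0.0026 and Lgr5 0.0012, and without 1 array they ranged from -0.086 to 0.14 and from -0.39 to 0.094. Averaged over the runs, leaving out 1 array gave Tcf7l2 -0.078 to 0.12 and Ccnd1 -0.061 to 0.081. Between runs Tcf7l2 was -0.19 to 0.022, and in the higher run Notum was -0.058 to 0.24. With probe sets averaged Csnk1d was 0.056 and Sp4 0.066, and Sp4 was 0.016 with the 5′ to 3′ ratio and run. The cause was not tested. No paired analysis was possible because no label pairs an activated with a wildtype kidney, and the run was the block available (13 calls with run as a term). Lef1 and part of the Sp5 values lie at the level of the bacterial controls, which limits what these genes can show.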
